A study of Mus musculus with 3 samples.

Results

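The 37 genes of the mouse mitochondrial genome were followed in RNA bound to chromatin of C57BL/6J bone marrow-derived macrophages, cells grown in culture from marrow. They were taken as all genes whose symbol begins with mt-, which gave 37 of 55536 annotated genes, and all 37 lie on the mitochondrial chromosome of build mm10 in the GENCODE M21 annotation. The members are 2 ribosomal RNA (rRNA), 22 transfer RNA (tRNA) and 13 protein-coding genes. The cells had received 100 ng/ml Lipid A, the Toll-like receptor 4 ligand of bacterial lipopolysaccharide, for 12 h and 12 h without it after a wash, and a second dose of 100 ng/ml was given 120 min before collection. The 3 ribosomal RNA-depleted libraries are biological replicates 1, 2 and 3 of this 1 condition, made from 1 µg, 250 ng and 500 ng of RNA. Sex and age were not collected and the labels name 1 donor entry for all 3, so SDs and p-values describe how far these 3 samples lie apart and may hold technical variation alone. No untreated cells and no other cell fraction were analysed here, so the values are levels and not responses.

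Mitochondrial DNA is transcribed from both strands into long precursors inside the organelle. The tRNAs lie between the longer genes, and their excision releases the rRNAs and mRNAs. The mRNAs encode core subunits of respiratory complexes I, III and IV and of ATP synthase, while the other subunits, and the proteins that transcribe, process and translate mitochondrial RNA, are encoded in the nucleus. Stretches of mitochondrial DNA have also been copied into nuclear chromosomes, where they can be nearly identical in sequence to the genes they came from.

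Each library was quantified by the authors in a pair of ways, one from an alignment to the transcriptome, in a gene and a transcript table (alignment-based), and one from the reads directly (read-based). Total counts were 18806319, 31394979 and 30481399 read-based in replicates 1, 2 and 3, and 10293545, 17820066 and 17548564 alignment-based. Replicate 1 stood apart from the others, with a Pearson correlation across 9245 protein-coding genes, which are not independent replicates, of 0.948 with replicate 2 and 0.946 with replicate 3, against 0.978 between those 2. All 8 macrophage markers reached 1 TPM, a relative abundance scaled by gene length, in every library of the alignment-based table, and none of 10 markers of T cells, B cells, neutrophils, fibroblasts and erythroid cells did. The nuclear RNAs Malat1 and Neat1 summed to between 14245 and 20252 TPM. Counts for the 37 members were the same in the gene table and the transcript table to within 0.01, as were TPM values.

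Several members have nearly identical nuclear copies, and the sequences that set the pairs apart are shown first. Of the 37 members, 9 matched an annotated nuclear gene at 95% identity or more over at least 100 bases, and 11 such copies were found. The 22 tRNA genes are 59 to 75 bases long, so none of them could match at this length. In 7 of these, all on chromosome 1 within a stretch of 4663 bases (chr1:24611535-24616197, mm10, minus strand), identity was over 99%. They are unprocessed pseudogenes of mt-Co1, mt-Co2, mt-Atp6, mt-Co3, mt-Nd3, mt-Nd4l and mt-Nd4, in the order of the mitochondrial genome. The copies of mt-Co2, mt-Atp6, mt-Co3 and mt-Nd4l had no difference over 681, 678, 783 and 294 aligned bases, and that of mt-Nd4 none over its first 876 of 1378 bases. Only annotated transcripts were searched, so members without a match may still have unannotated copies.

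The last 60 bases of mt-Atp6, which encodes the proton-channel subunit of ATP synthase (chrM:8548-8607, plus strand), and the last 57 of its copy Gm10925 (chr1:24613974-24614030, minus strand) show what the programs had to separate. Capitals mark the only bases of mt-Atp6 that the annotated copy lacks.
mt-Atp6: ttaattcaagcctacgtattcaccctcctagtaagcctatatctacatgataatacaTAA
Gm10925: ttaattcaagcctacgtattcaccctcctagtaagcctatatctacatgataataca

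Single bases separate the other 2 pairs over their aligned stretch. Counting from base 1 of the mitochondrial gene, the copy of mt-Nd3 carries T3C in 345 aligned bases, and that of mt-Co1 carries A1066T in 483. The 9 bases of Gm29216 before its match to mt-Co1 also differ in part. Shown are bases 1 to 33 of mt-Nd3 (chrM:9459-9491, plus) and its copy Gm28438 (chr1:24613087-24613119, minus), then bases 1054 to 1096 of mt-Co1 (chrM:6381-6423, plus) and bases 1 to 43 of Gm29216 (chr1:24616155-24616197, minus), with capitals at the positions that differ.
mt-Nd3: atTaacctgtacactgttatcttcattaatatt
Gm28438: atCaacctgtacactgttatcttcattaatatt
mt-Co1: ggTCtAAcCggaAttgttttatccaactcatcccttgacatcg
Gm29216: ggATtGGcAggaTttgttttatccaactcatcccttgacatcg

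The 37 genes held a very small share of these libraries. With the read-based counts they held 0.0654%, 0.0460% and 0.0448% in replicates 1, 2 and 3 (0.0521% ± 0.0116, SD, n = 3), and with the alignment-based counts 0.0570%, 0.0575% and 0.0572% (0.0572% ± 0.00028). The exact binomial 95% interval of replicate 1, which covers counting error only, was 0.0643% to 0.0666% read-based and 0.0555% to 0.0584% alignment-based. The share was thus highest in replicate 1 in the read-based counts and nearly equal in all 3 libraries in the alignment-based ones. As a share of TPM it was 0.0778%, 0.0754% and 0.0688% read-based and 0.0504%, 0.0935% and 0.0803% alignment-based, which puts replicate 1 lowest in the alignment-based table. Together with the 7 copies on chromosome 1, members held 0.0773%, 0.0466% and 0.0479% read-based and 0.0784%, 0.0688% and 0.0706% alignment-based, which puts replicate 1 highest in both.

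Detection differed by class of gene. At a threshold of 1 TPM in each library, 16 of 37 members were detected with the read-based values and 10 with the alignment-based values, against 33.5% of all annotated genes read-based and 21.7% alignment-based. Both rRNA genes were among them in either table. Of 13 protein-coding genes, 11 reached it read-based and 8 alignment-based. Of 22 tRNA genes, 3 reached it read-based and none alignment-based. In the alignment-based table every tRNA gene stood at 0 counts in every library with an effective length of 0. Read-based, 1 count of mt-Ti in replicate 2 gave 2.84 TPM, at an effective length of 13.2 bases. Of the 16 members detected read-based, 13 had at least 10 counts in every library, and no tRNA gene did. The share of a library that a count of 0 still allows was 2.9e-05% in replicate 1 and 1.7e-05% in replicates 2 and 3. This limit is for alignment-based counts of genes whose effective length is above 0 and whose reads match no other gene. The members at 0 with an effective length above 0 were mt-Co2, mt-Atp6, mt-Nd3 and mt-Nd4l, in some libraries. Each has a near-identical copy, so the limit does not hold for it.

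**Figure D1:**
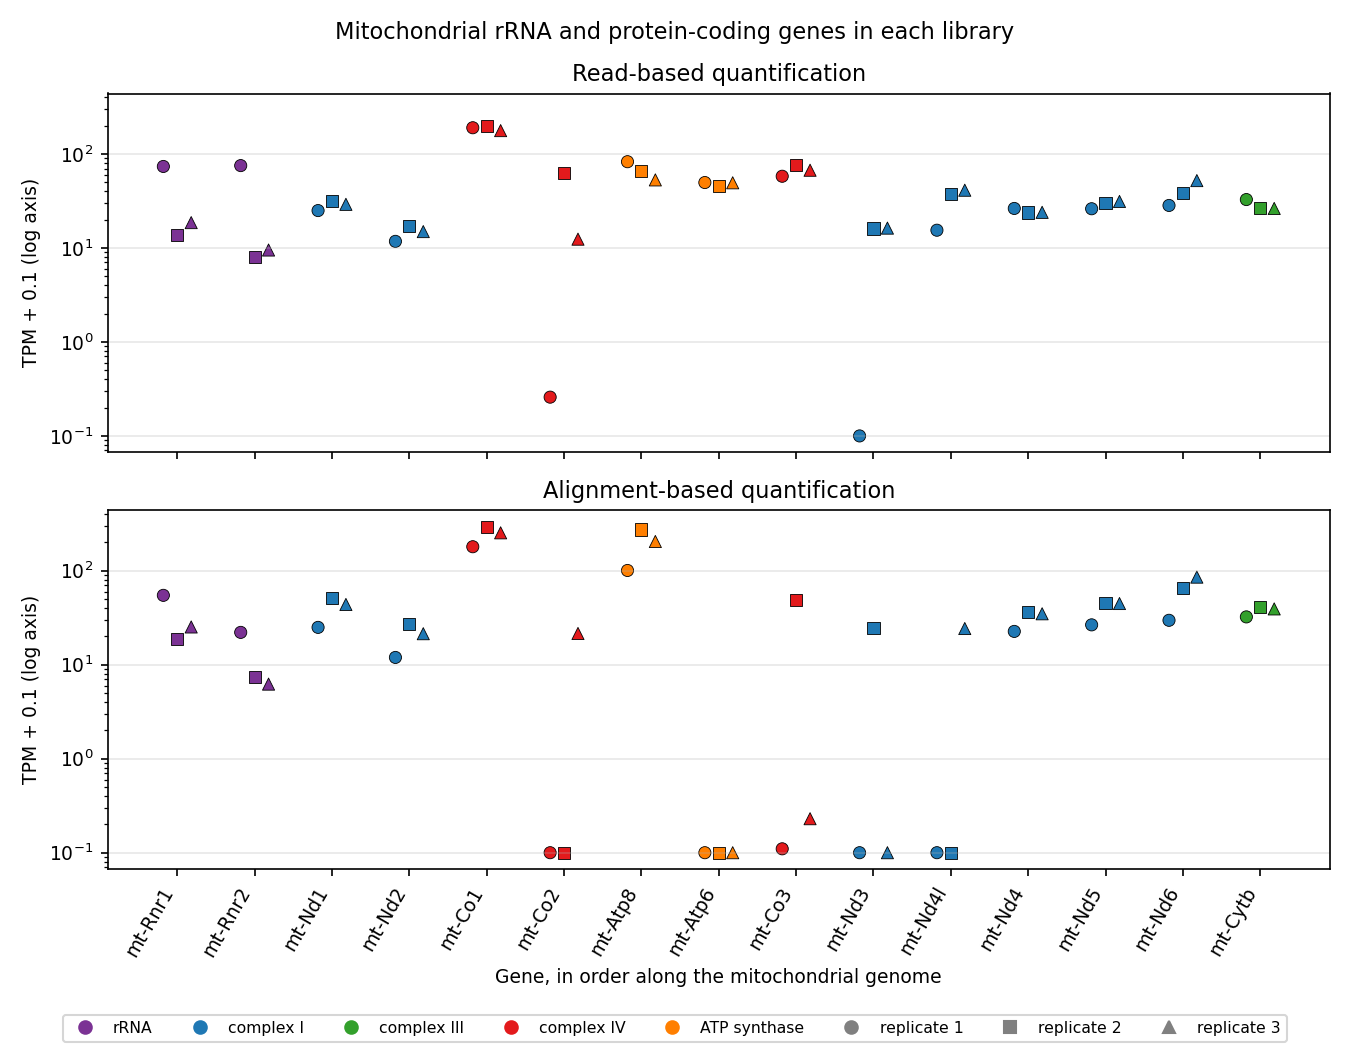
TPM + 0.1 on a log axis (vertical) of the 15 rRNA and protein-coding genes in their order along the mitochondrial genome (horizontal), 1 point per library, with the read-based values above and the alignment-based values below. Points at 0.1 are genes listed at 0, as mt-Atp6 is in replicates 2 and 3 of the alignment-based table, and mt-Co1 is the highest gene in every library of the read-based table.

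The rRNA genes set replicate 1 apart. mt-Rnr2, the 16S rRNA of the large mitochondrial ribosomal subunit (chrM:1094-2675), had 75.1, 7.90 and 9.41 TPM read-based in replicates 1, 2 and 3, and 21.98, 7.27 and 6.12 alignment-based. mt-Rnr1, the 12S rRNA of the small subunit (chrM:70-1024), had 73.5, 13.7 and 18.5 TPM read-based and 54.6, 18.8 and 25.1 alignment-based. Both genes were highest in replicate 1 in both tables. Their share of the counts on mitochondrial genes was 25.4%, 3.90% and 5.39% read-based and 15.8%, 3.45% and 4.43% alignment-based. These shares leave out counts on the chromosome 1 copies. Ribosomal RNA was depleted before sequencing, and its part in the difference between libraries was not tested. Neither gene had an annotated nuclear copy at 95% identity, and unannotated sequence was not searched.

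The 2 rRNAs did not keep the same ratio in both tables. The difference mt-Rnr2 minus mt-Rnr1 was -1.56 ± 0.40 on the log2(TPM + 0.1) scale alignment-based, in 3 of 3 libraries (exact two-sided sign-flip permutation test, p = 0.25, the smallest value that 3 libraries allow). Read-based, the differences were 0.03, -0.79 and -0.97 (exact sign-flip permutation test, p = 0.5), so replicate 1 went the other way. The gap between tables was wider for mt-Rnr2 than for mt-Rnr1 in every library, and in replicate 1 mt-Rnr2 had 2014 read-based and 386 alignment-based counts, or 5.22 times as many. In replicates 2 and 3 it had 289 and 357 read-based and 150 and 140 alignment-based counts.

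Complex IV, cytochrome c oxidase, was dominated by mt-Co1, its catalytic subunit (chrM:5328-6872). mt-Co1 had 189.9, 197 and 177 TPM read-based in replicates 1, 2 and 3, and 179.9, 295 and 253 alignment-based. It alone held 45.6% ± 4.56 of the counts on mitochondrial genes read-based and 55.4% ± 2.66 alignment-based (SD, n = 3). Both shares leave out counts on the chromosome 1 copies, so their difference between tables depends on how pairs were split. With all 7 copies included, mt-Co1 and Gm29216 had 6070, 7125 and 6671 of 14546, 14616 and 14601 counts read-based. Alignment-based, the pair had 3796, 6001 and 5698 of 8073, 12267 and 12384. The 6 protein-coding genes without an annotated near-identical copy were mt-Nd1, mt-Nd2, mt-Atp8, mt-Nd5, mt-Nd6 and mt-Cytb. mt-Co1 stood above their median by 2.68 ± 0.13 log2 units read-based and 2.60 ± 0.08 alignment-based, in 3 of 3 libraries each (exact sign-flip permutation test, p = 0.25 for each).

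The other complex IV genes could not be placed by their own rows. mt-Co2, the subunit that receives electrons from cytochrome c, had 1.61, 804 and 160 read-based counts and 0, 0 and 159 alignment-based counts in replicates 1, 2 and 3. Its copy Gm28661 had 1030, 43.7 and 769 read-based and 634, 718 and 662 alignment-based. The sum of both was 1032, 848 and 929 read-based and 634, 718 and 821 alignment-based. The sum varied far less than the split. mt-Co3, a core subunit without redox centres, had 695, 1167 and 1055 read-based counts and 0.07, 402 and 1.18 alignment-based. Its sum with Gm28437 was 767, 1169 and 1073 read-based and 498, 1033 and 955 alignment-based.

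Both ATP synthase genes share 1 messenger RNA in which their reading frames overlap. mt-Atp6 had 501, 570 and 635 read-based counts in replicates 1, 2 and 3, and 0.01, 0 and 0 alignment-based. Its copy Gm10925 had 0, 0 and 0 read-based counts and 316, 487 and 539 alignment-based. The 2 tables thus gave the whole of the signal to opposite partners in all 3 libraries. The same alignment-based table also holds a posterior mean count for mt-Atp6, of 125, 140.1 and 131, with a posterior SD of 91.3, 120 and 115, and a deposited TPM interval for replicate 2 of 0.0042 to 53.8.

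mt-Atp8, a short peripheral-stalk subunit with no annotated copy at these limits, had 136, 101 and 84 read-based counts and 79, 84 and 70 alignment-based. It lies between mt-Co2 and mt-Atp6, whose copies are neighbours on chromosome 1, and the unannotated bases between those copies were not searched. Its TPM was 82.6, 65.4 and 52.9 read-based and 101, 274 and 205 alignment-based. Those alignment-based values were divided by effective lengths of 64.1, 19.7 and 19.9 bases for a gene of 204, and the read-based values by 88.7, 58.0 and 57.1, and in replicates 2 and 3 the TPM differed more between tables than the counts did. Per kilobase of gene, read-based counts of mt-Atp8 were 667, 495 and 412, against 736, 837 and 932 for mt-Atp6. On the read-based TPM scale the order was the reverse, with mt-Atp8 above mt-Atp6 by 0.46 ± 0.32 log2 units in 3 of 3 libraries (exact sign-flip permutation test, p = 0.25).

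Complex I, NADH dehydrogenase, had 7 members. The 4 without an annotated near-identical copy kept the same order in both tables within each library. mt-Nd5, a proton-pumping subunit (chrM:11742-13565), had 26.0, 29.7 and 31.2 TPM read-based in replicates 1, 2 and 3, and 26.5, 45.4 and 44.7 alignment-based. mt-Nd1, which lines the quinone site, had 24.9, 31.4 and 29.0 TPM read-based and 24.9, 50.8 and 43.7 alignment-based. mt-Nd2, another proton-pumping subunit, was lowest of the 4 in every library, at 11.6, 17.2 and 14.8 read-based and 11.8, 27.2 and 21.3 alignment-based.

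mt-Nd6 is the only protein-coding gene on the minus strand (chrM:13552-14070), and its end overlaps that of mt-Nd5 on the plus strand. It had 28.2, 38.3 and 52.0 TPM read-based and 29.6, 65.8 and 85.4 alignment-based. It stood above mt-Nd5 by 0.41 ± 0.31 log2 units read-based and 0.54 ± 0.39 alignment-based, in 3 of 3 libraries each (exact sign-flip permutation test, p = 0.25 for each). Counts per kilobase of gene put mt-Nd6 above mt-Nd5 in replicate 3 alone, with 387, 622 and 855 for mt-Nd6 against 447, 701 and 763 for mt-Nd5 read-based, and 258, 522 and 763 against 298, 606 and 662 alignment-based. The TPM of mt-Nd6 was highest in replicate 3 and lowest in replicate 1 in both tables. In CPM, the count scaled to the library's total, mt-Nd6 had 10.7, 10.3 and 14.6 read-based and 13.0, 15.2 and 22.6 alignment-based. Replicate 3 was thus highest on this scale too, but the lowest read-based value was that of replicate 2. The sources used here do not state whether counting used strand, so RNA of the opposite strand cannot be told apart from mt-Nd6 RNA.

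The other complex I genes have chromosome 1 copies. mt-Nd4, a proton-pumping subunit, had 604, 740 and 769 read-based counts and 339, 627 and 673 alignment-based, and its copy Gm28439, which covers only part of it, had at most 23.2. mt-Nd3, which carries the loop that moves between states of the complex, had 0, 70 and 72 read-based counts, while Gm28438 had 31, 0 and 0. Alignment-based, mt-Nd3 had 0, 41.3 and 0 and Gm28438 had 22, 11.7 and 65. mt-Nd4l, which shares a messenger RNA with mt-Nd4, had 50, 121 and 138 read-based counts and 0, 0 and 30.4 alignment-based, with 0, 0 and 0 read-based and 20, 77 and 65.6 alignment-based for Gm10222. Read-based mt-Nd4l stood 0.22 ± 0.86 log2 units from mt-Nd4, below it in replicate 1 and above it in the others (exact sign-flip permutation test, p = 0.75). Per kilobase of gene, mt-Nd4l was below mt-Nd4 in all 3 libraries, with 168, 407 and 465 read-based counts for mt-Nd4l against 438, 537 and 558 for mt-Nd4. TPM divides by effective lengths, which for mt-Nd4l were 176, 123 and 121 bases of 297.

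Complex III, the cytochrome bc1 complex, has 1 mitochondrial member. mt-Cytb, which encodes its cytochrome b (chrM:14145-15288), had 32.6, 26.4 and 26.2 TPM read-based in replicates 1, 2 and 3, and 32.2, 41.4 and 39.1 alignment-based. Among protein-coding members, complex IV held 62.3% ± 2.40 of counts read-based and 62.2% ± 1.69 alignment-based (SD, n = 3), and complex I held 26.4% ± 2.39 read-based and 30.1% ± 2.26 alignment-based. Complex III held 5.55% ± 0.997 read-based and 6.66% ± 1.13 alignment-based. ATP synthase genes held 5.79% ± 1.07 read-based but 1.06% ± 0.47 alignment-based, where mt-Atp6 is listed at or near 0. All of these shares leave out counts on the chromosome 1 copies. Alignment-based, Gm28661 of mt-Co2 had 634, 718 and 662 counts and Gm28437 of mt-Co3 had 498, 631 and 954. The alignment-based share of complex IV thus rested mostly on mt-Co1, so its nearness to the read-based share does not mean that the tables counted alike.

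**Figure D2:**
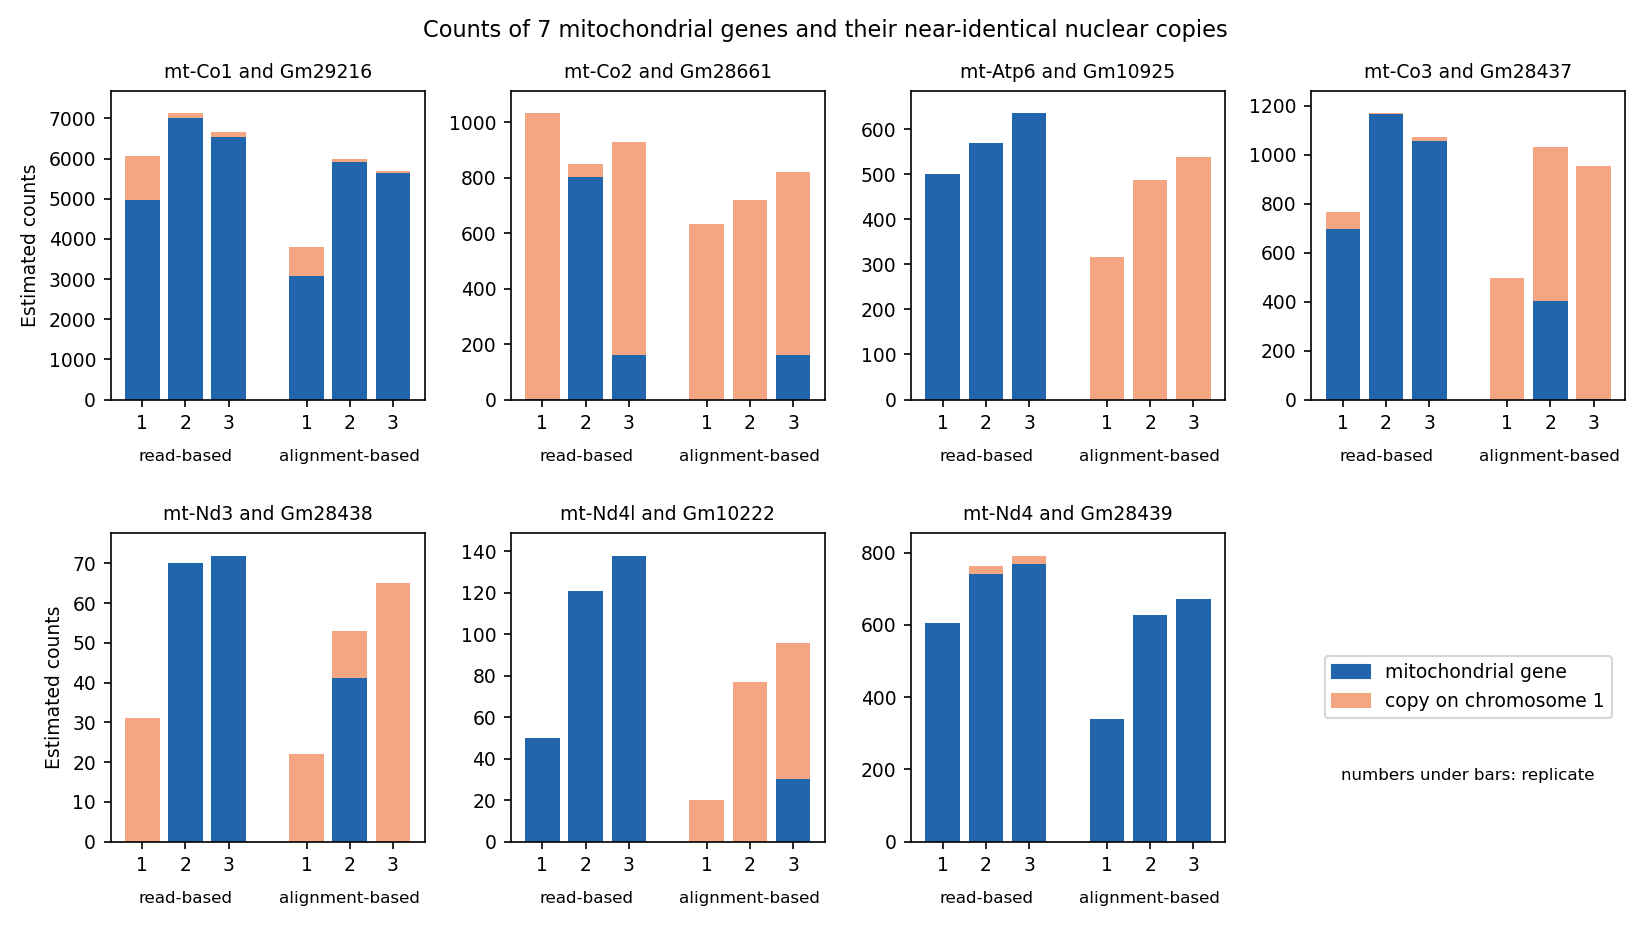
Estimated counts (vertical) of 7 mitochondrial genes, stacked under those of their copy on chromosome 1, in replicates 1, 2 and 3 (horizontal), with the read-based table left and the alignment-based table right in each panel. The bars of mt-Atp6 and Gm10925 are of 1 colour in each table and of opposite colours between tables, while the mt-Co2 bars change colour from library to library.

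The copies on chromosome 1 held a similar sum of counts in both tables in replicate 1, and a lower one read-based in replicates 2 and 3. Summed over all 7, they had 2239, 188 and 946 counts read-based in replicates 1, 2 and 3, and 2209, 2019 and 2354 alignment-based. In replicate 1 the sum was 0.0119% of the library read-based and 0.0215% alignment-based. Single copies differed there, with 0 read-based and 316 alignment-based counts for Gm10925, and 1030 and 634 for Gm28661. The other 4 copies, on chromosomes 2 and 13 at 95% to 99% identity (of mt-Co1, mt-Co2, mt-Nd2 and mt-Nd5), together had 14.7, 5.10 and 5.05 read-based and 0, 2.03 and 0 alignment-based. Most of these read-based counts fell on Gm13340, the copy of mt-Co1. Whether RNA of a pair came from the organelle or from chromosome 1 cannot be told apart where the sequences are identical.

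The mt-Co1 pair was split alike in both tables. Its copy aligns over 483 of the 1545 bases of mt-Co1 and starts with bases that differ, and the part of either in the split was not tested. Gm29216 had 1106, 119 and 136 counts read-based in replicates 1, 2 and 3, and 720, 94.0 and 68.8 alignment-based. It held 18.2%, 1.66% and 2.03% of the pair read-based and 19.0%, 1.57% and 1.21% alignment-based. Replicate 1 was thus far above the others in both tables, and the alignment-based posterior SD of its count was 27.8.

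Summed with its copy, each of the 7 genes had at least 20 counts in both tables and every library. Read-based sums were between 1.41 and 2.50 times the alignment-based sums in replicate 1, and between 1.11 and 1.57 times in replicates 2 and 3. For the 6 protein-coding genes without an annotated near-identical copy the same ratio ran from 1.5 to 1.72 in replicate 1. It ran from 1.13 to 1.20 in replicate 2 and from 1.12 to 1.20 in replicate 3. Total counts of the libraries were 1.83, 1.76 and 1.74 times as high read-based as alignment-based.

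Over all members, read-based counts exceeded alignment-based counts by 0.67 ± 0.35 log2 units, over protein-coding members by 0.60 ± 0.25 and over rRNA members by 1.05 ± 0.61, in 3 of 3 libraries each (exact sign-flip permutation test, p = 0.25 for each). Scaled to the total of each table, the first 2 mean differences turned to -0.16 and -0.23 (exact sign-flip permutation test, p = 0.5 for each). That of the rRNA genes was 0.22 (exact sign-flip permutation test, p = 1). In all 3 comparisons, scaled counts were higher read-based in replicate 1 only. Protein-coding members had 487, 441 and 423 CPM, the count scaled to the table's total, read-based and 480, 555 and 546 CPM alignment-based. The rRNA genes had 166, 17.9 and 24.1 CPM read-based and 89.9, 19.9 and 25.3 CPM alignment-based. Of 15 members with a mean of at least 10 counts in either table, 3 (mt-Atp6, mt-Co3 and mt-Nd4l) were at least 2-fold higher read-based in every library, against 54.8% of 24088 genes, and none was 2-fold lower, against 0.145%. Of the 7 copies, 3 were 2-fold lower read-based in every library, namely Gm10925, Gm28437 and Gm10222. The 13 within-library differences were tested as 1 family, and after Benjamini-Hochberg adjustment the exact permutation p-values ran from 0.295 to 0.75.

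The rRNA genes varied most between libraries among members of at least 10 counts in every library. The SD of log2(CPM + 0.5) was 1.44 for mt-Rnr1 and 1.92 for mt-Rnr2 read-based, and 1.11 and 1.23 alignment-based. It was 0.16 for mt-Co1 read-based and 0.08 alignment-based, and 0.08 for mt-Nd5 read-based and 0.19 alignment-based. The median was 0.26 over 13 members read-based and 0.24 over 10 alignment-based, near the median over all genes of at least 10 counts, 0.26 read-based and 0.27 alignment-based. Without replicate 1 the members' medians were 0.12 read-based and 0.096 alignment-based. No median over all genes without replicate 1 is given here, so this fall is not shown to be particular to the members. Over the 7 genes with a chromosome 1 copy, the median SD was 0.13 summed with the copy and 1.25 alone in the alignment-based table, and 0.27 either way in the read-based one. Behind that equal read-based median, the SD of mt-Co2 was 0.54 summed and 2.76 alone and that of mt-Nd3 was 0.22 summed and 1.43 alone, while that of mt-Co1 was 0.31 summed and 0.16 alone. Alignment-based mt-Co3 varied with an SD of 3.13 alone and 0.13 summed with Gm28437, and mt-Co2 with 2.46 alone and 0.31 summed with Gm28661.

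The tRNA genes gave few counts, and most of those fell on genes annotated on 1 strand. Read-based, all 22 together had 24, 23 and 26 counts in replicates 1, 2 and 3. The 8 genes annotated on the minus strand held 19, 22 and 25 of them, or 90.4% over the 3 libraries, and each of the 8 had a count. The 14 genes on the plus strand held 5, 1 and 1, and 5 of them had a count. The 3 with at least 1 TPM in every library were all annotated on the minus strand. Whether counting used strand is not stated, so RNA of the opposite strand cannot be told apart from that of these genes.

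mt-Ts1, a serine tRNA, had 5, 10 and 7 counts in replicates 1, 2 and 3, mt-Tp, for proline, had 4, 5 and 9, and mt-Ta, for alanine, had 2, 3 and 6. These 3 sequences, given 5′ to 3′ with the anticodon in capitals, are the tRNA genes with the most counts (mt-Ts1 at chrM:6870-6938, mt-Tp at chrM:15356-15422, mt-Ta at chrM:5018-5086). In each the anticodon sits in a loop of 7 bases closed by 5 base pairs.
mt-Ts1: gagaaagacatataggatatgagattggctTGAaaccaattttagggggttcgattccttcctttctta
mt-Tp: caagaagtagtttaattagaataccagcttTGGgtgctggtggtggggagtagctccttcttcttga
mt-Ta: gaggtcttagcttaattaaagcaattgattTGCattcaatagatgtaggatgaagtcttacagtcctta

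Position along the genome differed between the same groups of tRNA genes. On the minus strand, 3 of 8 had no gene of their own strand within 3 bases on either side (mt-Tq, mt-Ts1 and mt-Tp), and the other 5 had one on 1 side. On the plus strand, 8 of 14 had such a neighbour on both sides and the other 6 on 1 side. The part of this spacing, of the short length of 59 to 75 bases and of the size range of 250 to 400 in the labels in these counts was not tested.

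**Figure D3:**
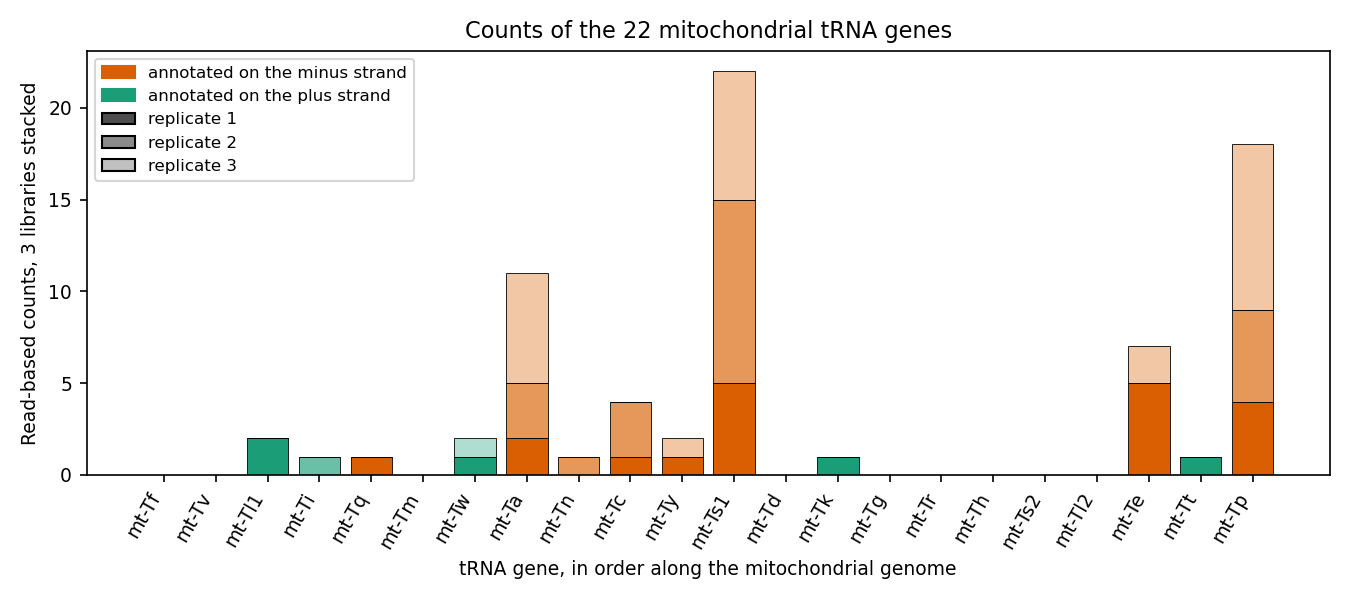
Read-based counts (vertical) of the 22 tRNA genes in genome order (horizontal), with the 3 libraries stacked in each bar and the annotated strand as colour. The tallest bars, mt-Ts1 with 22 counts and mt-Tp with 18, belong to the minus strand, and 9 of the 14 plus-strand genes have no count.

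Per length, the members' median lay above that of their nuclear partners. The median protein-coding member stood at 26.2, 37.02 and 31.2 TPM read-based in replicates 1, 2 and 3, against 21.9, 27.8 and 24.1 for the median of 34 nuclear subunits of complexes I, III and IV and ATP synthase. Alignment-based, the medians were 22.5, 41.4 and 34.7 for members and 12.4, 17.5 and 14.4 for the nuclear subunits. The difference in median log2(TPM + 0.1) was 0.35 ± 0.08 read-based and 1.12 ± 0.23 alignment-based, in 3 of 3 libraries each (exact sign-flip permutation test, p = 0.25 for each). Alignment-based means over members turned it to -0.71, with 5 of 13 members at or near 0 in at least 1 library, and with the full-length chromosome 1 copies added to their genes it was 1.83 with medians and 1.93 with means. All 34 nuclear subunits reached 1 TPM in every library in both tables, against 33.5% of all annotated genes read-based and 21.7% alignment-based. These shares cover genes of every type and are also the background for the nuclear lists below. No share over protein-coding genes alone is given here, so the lists are not shown to be detected more often than other protein-coding genes. By alignment-based TPM they were led by Atp5b, the catalytic beta subunit of ATP synthase, at 82.1 ± 17.7 read-based and 92.3 ± 36.8 alignment-based, with Cox7c and Atp5k next and Uqcrfs1, the Rieske iron-sulfur protein of complex III, lowest at 3.24 ± 0.91 read-based and 4.05 ± 1.54 alignment-based.

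Genes of the mitochondrial expression machinery had lower medians than the members in both tables. Of 16 genes that transcribe or maintain mitochondrial DNA, 14 reached 1 TPM in every library read-based and 12 alignment-based, with a median of 6.94 ± 1.82 TPM read-based and 3.36 ± 1.01 alignment-based. Polrmt, the mitochondrial RNA polymerase, stood at 8.91 ± 3.28 read-based and 8.62 ± 3.35 alignment-based, Tfam, the packaging and initiation factor, at 8.10 ± 3.64 read-based and 2.26 ± 0.86 alignment-based, and Tfb2m, the initiation partner of the polymerase, at 10.1 ± 4.10 read-based and 2.81 ± 0.78 alignment-based (SD, n = 3). Polg, the mitochondrial DNA polymerase, had 55.8 ± 14.2 TPM read-based and was highest of the list alignment-based at 63.9 ± 22.1. Mterf3 had 79.4 ± 26.2 read-based and 21.6 ± 7.53 alignment-based, Ssbp1, the single-stranded DNA binding protein, had 12.1 ± 3.38 read-based and 13.7 ± 5.31 alignment-based, and Mterf2 was lowest alignment-based, with 1.64 ± 0.53 read-based and 0.70 ± 0.39 alignment-based.

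Of 29 measured genes of mitochondrial RNA processing and stability, 27 reached 1 TPM in every library in either table, with a median of 8.08 ± 1.94 TPM read-based and 6.39 ± 1.71 alignment-based. Lrpprc, which stabilises mitochondrial mRNAs, stood at 24.1 ± 7.32 read-based and 14.5 ± 5.76 alignment-based. Fastk, Ptcd3 and Trnt1, the enzyme that adds CCA ends to tRNAs, were highest alignment-based and Rpusd3 was lowest, at 1.04 ± 1.16. Of 22 genes for mitochondrial aminoacyl-tRNA synthetases and related subunits, 20 reached 1 TPM read-based and 17 alignment-based, with Fars2, Cars2 and Hars2 highest alignment-based and Mars2 lowest at 0.90 ± 0.48.

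**Figure D4:**
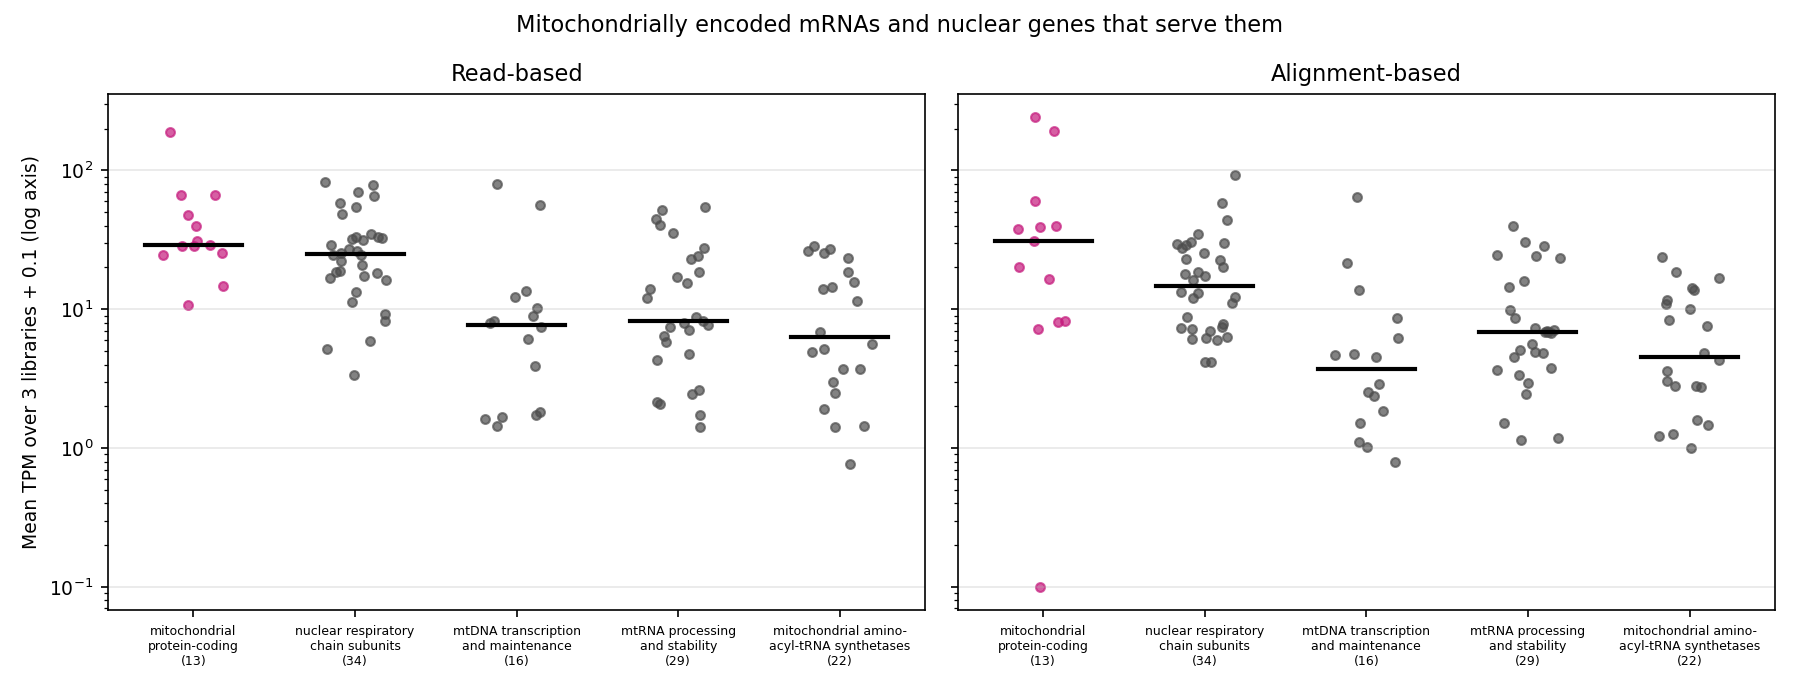
Mean TPM over 3 libraries + 0.1 on a log axis (vertical), 1 point per gene, for the 13 mitochondrial protein-coding genes and 4 nuclear gene lists (horizontal), with bars at the list medians, read-based left and alignment-based right. The mitochondrial genes lie highest by median in both panels, and the alignment-based point at 0.1 is mt-Atp6.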

How the data were processed

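Ribosomal RNA-depleted RNA of the chromatin fraction was sequenced in 3 libraries of 1 condition. Per the deposited notes, build mm10 and GENCODE M21 were used. The authors deposited expected counts and TPM per gene and transcript, derived from a transcriptome alignment, in the columns RSEM writes per the file headers, and estimated counts and TPM per transcript, derived from the reads, in kallisto's columns. The alignment-based tables also give, as a score, a posterior SD of each count and the bounds of a TPM interval, whose level the authors' headers do not state. For program versions, settings and strand, the sources used here give nothing. Read-based transcripts were summed per gene. All rows entered totals, of which rows outside the annotation held between 0.267% and 1.87% of counts.

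Nuclear copies were found with blastn 2.17.0 (transcripts of members against all other GENCODE M21 transcripts, at least 95% identity over 100 bases). Differences within libraries used log2(TPM + 0.1), or log2(counts + 0.5) between tables, with an exact two-sided sign-flip permutation test. Spread is the SD of log2(CPM + 0.5) for genes of at least 10 counts in every library. TMM factors came from edgeR 4.0.16 and size factors from DESeq2 1.42.0, on counts rounded to whole numbers. The naming rule took all 37 members, the 10 copies of highest mean count and, of each nuclear list, the 3 highest and the lowest by alignment-based TPM plus Tfam, Polrmt, Tfb2m and Lrpprc. Members and lists were chosen with earlier results of these data known. Code was tested on simulated data. Sequences are from GENCODE M21 transcripts (GRCm38).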

Additional observations from a re-analysis of the deposited data

How the results depend on the processing

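No paired analysis was possible because all libraries belong to 1 group, so no groups could be paired; differences were taken within each library. The alignment-based mitochondrial share of 0.0572% became 0.0577% over annotated genes only, 0.0671% without the ribosomal RNA locus of chromosome 17, 0.0747% as a share of TPM and 0.0609% with posterior mean counts, and the read-based share of 0.0521% became 0.0740% of TPM. The tRNA share of read-based mitochondrial counts, 0.18%, became 9.82% of TPM. The mean excess of read-based over alignment-based counts reversed when scaled to each table's total, to -0.16 over all members and -0.23 over protein-coding members. Replicate 1 kept an excess in both of these. With copies included the scaled means became -0.38 and -0.45, and in TPM the mean for protein-coding members became -0.16. Without a minimum count, 6 members were 2-fold higher read-based in place of 3. The read-based difference mt-Rnr2 minus mt-Rnr1 became 0.28 in CPM, which does not divide by length, and the alignment-based difference of members minus nuclear subunits, 1.12 with medians, became -0.71 with means. Where no cause is given above, the cause was not tested. The median SD of members was 0.26 read-based and 0.24 alignment-based. Over all members with any count, it became 0.13 for 28 members read-based and 0.40 for 15 alignment-based. As each library was left out, it ranged from 0.12 to 0.31 read-based and from 0.096 to 0.27 alignment-based, lowest without replicate 1. Posterior mean counts, the scaled ratio with copies and the sums with copies set against nuclear subunits were added after the data were seen. For the SDs of single members, 86 of 115 alternatives stayed within 1.5 times the reported SD and 29 did not.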
